A study of Mus musculus with 12 samples.

Results

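The data described here are the transcript levels of 9 carriers of glucose and phosphate in mouse kidney cortex after unilateral ureteral obstruction (UUO). The 9 genes were chosen by symbol, and each of them was found in all 12 libraries, among 23183 gene symbols in all. They comprise 5 carriers of the apical (luminal) membrane of the proximal tubule (Slc5a1, Slc5a2, Slc5a10, Slc34a1 and Slc34a3), a basolateral glucose carrier of the same cells (Slc2a2) and 3 carriers found in most cell types (Slc2a1, Slc20a1 and Slc20a2). UUO closes 1 of the ureters of a mouse, while its other, contralateral kidney (CL) keeps its outflow. Cortex of both sides was taken on day 7 from Acot12+/+ mice and from Acot12-/- mice, which carry a germline mutation of the acyl-CoA thioesterase gene Acot12 in all cells, made with an RNA-guided nuclease. The mice were males, 6 to 7 weeks old at surgery, of a strain given as C57BL/6 in the sample labels and as C57BL/6N in the study's methods, and the 4 groups (Acot12+/+ CL, Acot12+/+ UUO, Acot12-/- CL and Acot12-/- UUO) held 3 libraries each. No group had sham surgery, and CL kidneys came from mice that carried an obstruction on the other side.

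The proximal tubule takes back nearly all filtered glucose and most filtered phosphate. Sodium-coupled carriers in the brush border bring the solute into the cell: Slc5a2 encodes SGLT2, the high-capacity glucose carrier of the early segments, Slc5a1 encodes SGLT1, the high-affinity carrier of the late segment, and Slc5a10 encodes SGLT5, a carrier of mannose and fructose. Slc34a1 and Slc34a3 encode NaPi-IIa and NaPi-IIc, the brush border phosphate carriers that parathyroid hormone and FGF23 withdraw from the membrane. Slc2a2 encodes GLUT2, the basolateral exit of glucose. Slc2a1 encodes GLUT1, a glucose carrier of most cell types, and Slc20a1 and Slc20a2 encode PiT-1 and PiT-2, the phosphate carriers that most cells use for their own supply.

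The level of a gene is given as FPKM, a number of fragments divided by transcript length and by library depth, so that levels can be compared between genes. The depth is here the divisor estimated from the steps between low values. It was 12420000 to 16340000 fragments on the CL side and 18560000 to 23040000 on the UUO side. A normalization factor of the authors' processing would be part of this divisor, so it need not be the number of fragments sequenced. The divisor differed between the sides, and its part in the results was not tested. The lowest value of any of the 9 genes, Slc34a3 in an Acot12-/- UUO library, rested on about 25 fragments, and no other gene of the set fell under about 345 fragments in a library. Differences were tested with limma on log2(FPKM + 1) over 13271 genes, and a gene was called when its adjusted p was under 0.05. A log2 fold change on this scale understates the change of a gene with low FPKM, which here concerns Slc34a3. Acot12 itself, the check of the genotype labels, ran from 52.7 to 78.1 FPKM in CL kidneys labelled Acot12+/+ and from 6.80 to 9.15 in those labelled Acot12-/-. On the obstructed side the ranges were 9.98 to 21.2 and 1.80 to 3.86 FPKM, so that the genotypes did not overlap on either side. Acot12-/- CL replicate 2 and Acot12-/- UUO replicate 2 stood apart from their groups for several carriers, and several results are given with and without them.

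The tissue label was compared with marker genes of cortical cells. All 10 proximal tubule markers (among them Lrp2, Cubn and Miox) were present in every library, with a summed level of 4715 to 8244 FPKM in CL kidneys of both genotypes. After UUO this sum was 747 to 1579 FPKM in Acot12+/+ and 611 to 1923 in Acot12-/- kidneys, and all 10 markers were called lower in each genotype (median log2 fold changes −2.47 and −2.67). All 8 markers of other tubule segments were called lower in Acot12+/+ and 7 of 8 in Acot12-/- kidneys. Of all genes 23.8% were called lower and 23.5% higher in Acot12+/+, and 27% and 26.4% in Acot12-/- kidneys. All 7 injured tubule markers (among them Havcr1 and Lcn2) were called higher in each genotype, with sums of 1001 to 5005 FPKM in CL and 15400 to 18360 in UUO kidneys. These sums rest mainly on Spp1, with CL means of 1792 FPKM in Acot12+/+ and 3429 in Acot12-/- kidneys, and UUO means of 14080 and 15270. The CL means of Havcr1 were 3.30 and 3.96 FPKM and its UUO means 669 and 606. Macrophage markers had sums of 54.8 to 181.3 FPKM in CL and 649.2 to 936 in UUO kidneys. The sums of fibroblast markers were 47.4 to 177 FPKM in CL and 338 to 496.4 in UUO kidneys. In such bulk samples fewer cells of a type and less RNA per cell cannot be told apart.

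Promoter sequences are shown for 2 apical carriers that were called lower after UUO in each genotype and for Slc20a1, which was called higher in each. The sequences come from a RefSeq promoter table (GRCm38.p6), to which 7 of the 9 genes were matched; the promoters of Slc5a2 and Slc20a2 were not analysed here. Each window was searched on both strands, over the 250 bases before a gene start, for AAAGTCC (a core of the site of HNF4, a transcription factor of the proximal tubule) and ACGTG (the core of the hypoxia response element). AAAGTCC was held by 3.58% of the 32851 mouse promoter windows and ACGTG by 16.6%. The 3 stretches below hold matches of these genes; capitals mark the matches, on either strand, and each sequence runs 5′ to 3′ on the strand of its gene.
Slc34a1 (chr13:55399528-55399647, plus strand): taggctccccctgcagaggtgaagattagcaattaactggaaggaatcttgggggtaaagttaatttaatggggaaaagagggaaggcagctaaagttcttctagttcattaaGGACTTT
Slc5a1 (chr5:33104099-33104218, plus strand): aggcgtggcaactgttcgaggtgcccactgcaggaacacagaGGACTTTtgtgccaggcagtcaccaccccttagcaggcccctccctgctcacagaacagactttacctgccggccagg
Slc20a1 (chr2:129198644-129198763, plus strand): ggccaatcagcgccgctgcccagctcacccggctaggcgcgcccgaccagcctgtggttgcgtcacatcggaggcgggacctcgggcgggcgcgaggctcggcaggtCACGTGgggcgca

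The Slc34a1 stretch held AAAGTCC at −7 on the opposite strand (printed as GGACTTT), counted from the RefSeq start. It lies within intron 1 of the longest GENCODE transcript of the gene. The Slc5a1 stretch held AAAGTCC at −78 on the opposite strand, and a CACGTG, which reads ACGTG on both strands, lay further upstream at −143. The Slc20a1 stretch held CACGTG at −22, and another lay upstream of it at −175. The Slc2a1 window held ACGTG at −36. The windows of Slc34a3, Slc5a10 and Slc2a2 held neither motif, and nor did another Slc20a1 window (chr2:129206846-129207095). These matches are a description of letters and not of bound sites.

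The first comparison asked how the carriers changed with obstruction in Acot12+/+ kidneys. Of the 9 genes 5 were called lower after UUO and 1 was called higher, beside 23.8% of all genes tested called lower and 23.5% called higher (47.3% either way). The genes called lower were 4 of the 5 apical carriers, which fell 1.79-fold to 4.31-fold on FPKM + 1, and the basolateral Slc2a2. Slc20a1 was the gene called higher. For each of these 6 genes the 3 UUO libraries lay wholly on 1 side of the 3 CL libraries, as they did, below, for 35.7% and, above, for 35.4% of all genes. In Acot12-/- kidneys all 9 genes were called, 7 lower and 2 higher, beside 27% of all genes called lower and 26.4% called higher (53.5% either way), with no overlap between the sides for any of the 9 (27.6% of all genes below, 27.7% above). With total FPKM set equal in all libraries (equal totals) the calls of all genes turned to 7416 higher and 1044 lower in Acot12+/+ kidneys, against 3125 and 3154 without that scaling, and to 6063 higher and 1549 lower in Acot12-/- kidneys, against 3507 and 3587. That scaling raised the median of all genes by 0.61 and 0.45 on the log2 scale, and total FPKM was 799670 to 977981 in CL and 491078 to 686425 in UUO libraries.

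**Figure D1:**
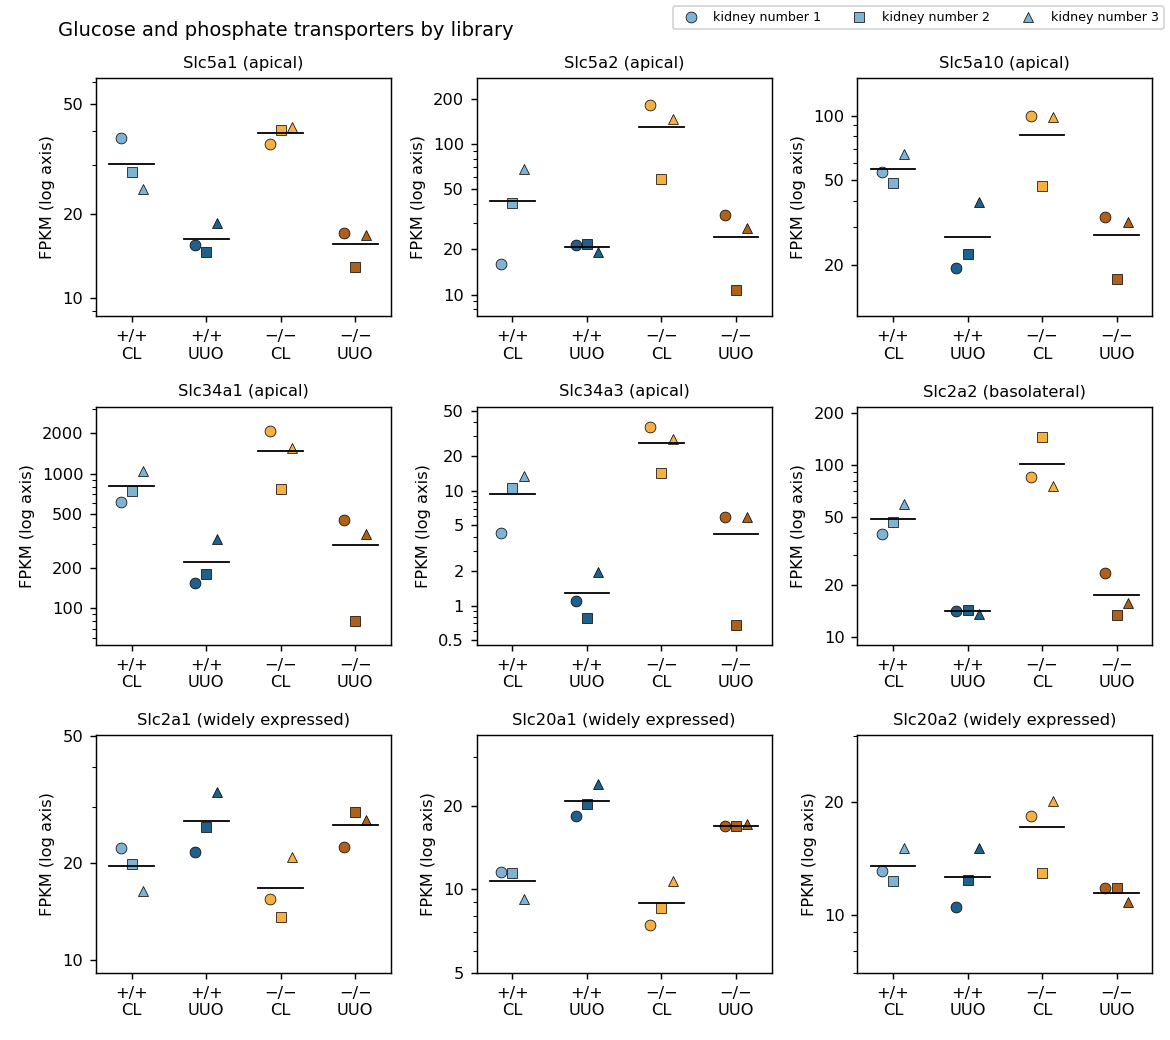
FPKM (log axis) of the 9 carriers in each library, by group; circles, squares and triangles are kidneys numbered 1, 2 and 3, and horizontal bars are group means (n = 3). The 5 apical carriers and Slc2a2 have lower means after UUO (CL to the left of UUO in each genotype), Slc20a1 and Slc2a1 have higher means, and Acot12-/- kidneys with the number 2 are the lowest of their group for Slc5a2, Slc5a10, Slc34a1 and Slc34a3.

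Slc34a1, the main phosphate carrier of the brush border, had by far the highest level of the set. The CL kidneys of Acot12+/+ mice held 619.8, 747 and 1039 FPKM, and their UUO kidneys 152.6, 180.6 and 324.1 FPKM. The CL kidneys of Acot12-/- mice held 2087, 762 and 1561 FPKM, and their UUO kidneys 454, 79.9 and 354 FPKM. Each UUO library lay below each CL library of either genotype. The log2 fold change was −1.91 (SE 0.58, limma adjusted p = 0.0178) in Acot12+/+ and −2.53 (SE 0.58, adjusted p = 0.00313) in Acot12-/- kidneys, a fall of 3.76-fold and 5.76-fold. The Acot12+/+ call was lost without CL replicate 3 (adjusted p = 0.0645), without UUO replicate 1 (0.0667), without UUO replicate 2 (0.0557) and with equal totals (0.057). Without Acot12-/- UUO replicate 2 the Acot12-/- log2 fold change was −1.75 and still called. The difference between the genotypes in the change then turned from −0.61 to 0.16, and neither value was called.

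Slc34a3, the second phosphate carrier of the brush border, was the least abundant of the apical carriers. In Acot12+/+ mice the level went from 4.26, 10.6 and 13.6 FPKM on the CL side to 1.10, 0.777 and 1.96 FPKM on the UUO side. In Acot12-/- mice it went from 35.9, 14.4 and 28.3 FPKM to 5.95, 0.683 and 5.91 FPKM. The sides did not overlap within a genotype, and the lowest value of either genotype came from a UUO kidney with the number 2. The log2 fold changes were −2.11 (SE 0.55, adjusted p = 0.00782) and −2.56 (SE 0.55, adjusted p = 0.00191), which are 4.31-fold and 5.91-fold falls of FPKM + 1. Mean FPKM itself went from 9.46 to 1.28 in Acot12+/+ and from 26.2 to 4.18 in Acot12-/- kidneys. Without Acot12-/- UUO replicate 2 the Acot12-/- log2 fold change was −1.88 and still called. The difference between the genotypes in the change then turned from −0.45 to 0.23, and neither value was called.

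Among the apical sugar carriers, Slc5a1 changed with the least spread. In Acot12+/+ mice the CL libraries held 37.7, 28.4 and 24.8 FPKM, and the UUO libraries 15.6, 14.6 and 18.6 FPKM. In Acot12-/- mice they held 35.9, 40.3 and 41.1 FPKM, and 17.1, 12.9 and 16.9 FPKM after obstruction. All UUO values lay under all CL values. The fall was 1.79-fold in Acot12+/+ (log2 fold change −0.84, SE 0.18, adjusted p = 0.00224) and 2.42-fold in Acot12-/- kidneys (−1.28, SE 0.18, adjusted p = 9.65e-05). With equal totals the Acot12+/+ value was −0.14 (adjusted p = 0.521), or −0.76 after the shift of the median of all genes is taken off.

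For Slc5a10 the Acot12+/+ CL libraries held 54.3, 48.6 and 65.8 FPKM, against 19.3, 22.5 and 39.3 FPKM on the UUO side. The Acot12-/- CL libraries held 99.7, 46.7 and 98.1 FPKM, against 33.7, 17.2 and 31.7 FPKM. Again the sides did not overlap, and in both Acot12-/- groups the kidney with the number 2 was lowest. The log2 fold changes were −1.08 (SE 0.35, adjusted p = 0.0231) and −1.51 (SE 0.35, adjusted p = 0.00315), or 2.12-fold and 2.85-fold falls. The Acot12+/+ call was lost without CL replicate 1 (adjusted p = 0.0543), without CL replicate 3 (0.0795), without UUO replicate 1 (0.0937), without UUO replicate 2 (0.0756) and with equal totals (0.318).

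Slc5a2 was the apical carrier that was not called in Acot12+/+ kidneys. Its CL values were 15.9, 40.8 and 68.0 FPKM and its UUO values 21.5, 21.6 and 19.2, so that a CL kidney lay under all of the UUO kidneys. The log2 fold change was −0.75 (SE 0.54, adjusted p = 0.278). It was −1.30 (adjusted p = 0.0664) without Acot12+/+ CL replicate 1 and −0.29 (adjusted p = 0.705) without Acot12+/+ CL replicate 3. The Acot12-/- CL values were 182.1, 58.7 and 147.3 FPKM, the UUO values of that genotype were 33.6, 10.7 and 27.6 FPKM, and every UUO value lay under every CL value. The fall there was 5.19-fold (log2 fold change −2.38, SE 0.54, adjusted p = 0.00301). The difference between the genotypes in this change was −1.63 (SE 0.77, limma adjusted p = 0.496) and was not called.

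Slc2a2, the basolateral exit for glucose, fell with the apical carriers. Its Acot12+/+ CL values of 39.8, 46.7 and 58.9 FPKM compare with UUO values of 14.3, 14.5 and 13.6 FPKM. Its Acot12-/- CL values of 85.2, 143.8 and 75.3 FPKM compare with UUO values of 23.5, 13.5 and 15.7 FPKM. The UUO values of both genotypes lay between 13.5 and 23.5 FPKM, below all CL values. The log2 fold changes were −1.69 (SE 0.26, adjusted p = 0.000266) and −2.44 (SE 0.26, adjusted p = 1.55e-05), or 3.23-fold and 5.43-fold falls.

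The widely expressed carriers moved in different directions, with 1 of 3 called higher in Acot12+/+ kidneys, and 2 called higher and 1 lower in Acot12-/- kidneys. Slc20a1 went from 11.5, 11.5 and 9.24 FPKM on the CL side of Acot12+/+ mice to 18.3, 20.3 and 23.9 FPKM on the UUO side. In Acot12-/- mice it went from 7.46, 8.59 and 10.7 FPKM to 16.9, 16.9 and 17.2 FPKM. Every UUO library lay above every CL library. The rise was 1.86-fold in Acot12+/+ (log2 fold change 0.89, SE 0.16, adjusted p = 0.000677) and 1.83-fold in Acot12-/- kidneys (0.87, SE 0.16, adjusted p = 0.000584).

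For Slc2a1 the Acot12+/+ CL libraries held 22.4, 19.9 and 16.4 FPKM and the UUO libraries 21.7, 25.9 and 33.5 FPKM, which overlap. The Acot12-/- CL libraries held 15.5, 13.6 and 20.98 FPKM and the UUO libraries 22.5, 28.9 and 27.4 FPKM, without overlap. The log2 fold change was 0.44 (SE 0.20, adjusted p = 0.0954) in Acot12+/+ and 0.64 (SE 0.20, adjusted p = 0.019) in Acot12-/- kidneys. The Acot12-/- call was lost without Acot12-/- CL replicate 1 (adjusted p = 0.0527), UUO replicate 2 (0.0684) or UUO replicate 3 (0.0564), without both Acot12-/- kidneys with the number 2 (0.117) and when the fit held only the groups compared (0.0544). With equal totals the Acot12+/+ rise was called (1.14, adjusted p = 0.000292; 0.53 with the median shift taken off).

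Slc20a2 moved least. In Acot12+/+ mice its CL libraries held 13.1, 12.3 and 15.1 FPKM and its UUO libraries 10.5, 12.4 and 15.1 FPKM, and the change of −0.09 on the log2 scale was not called (SE 0.18, adjusted p = 0.685). In Acot12-/- mice its CL libraries held 18.4, 12.9 and 20.1 FPKM and its UUO libraries 11.8, 11.8 and 10.8 FPKM, and the change of −0.52 was called (SE 0.18, adjusted p = 0.0269). That call was lost without Acot12-/- CL replicate 1 (adjusted p = 0.0784) or 3 (0.0864) and without Acot12-/- UUO replicate 1 (0.0547), 2 (0.0561) or 3 (0.0779), when the fit held only the groups compared (adjusted p = 0.0899) and with equal totals (−0.01, adjusted p = 0.976). With equal totals the Acot12+/+ value turned to 0.59 (adjusted p = 0.0225), or −0.03 with the median shift taken off.

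**Figure D2:**
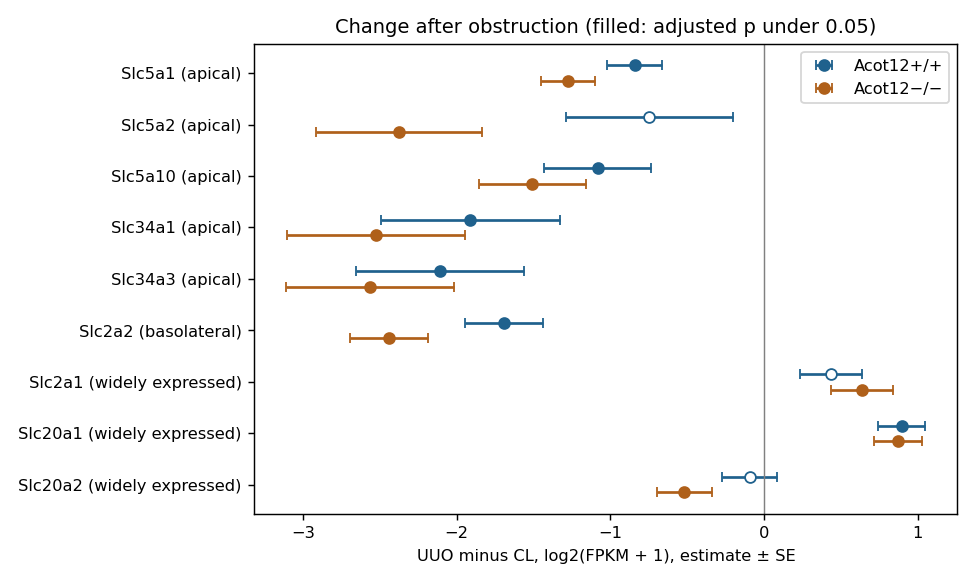
Change from CL to UUO of the 9 carriers on log2(FPKM + 1), estimate ± SE from limma, in Acot12+/+ (blue) and Acot12-/- (brown) kidneys; filled points have an adjusted p under 0.05. The apical carriers and Slc2a2 lie between −2.56 and −0.75, Slc2a1 and Slc20a1 between 0.44 and 0.89 and Slc20a2 at −0.09 and −0.52; with equal totals Slc20a2 moves to 0.59 in Acot12+/+ kidneys.

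Over both genotypes (6 libraries a side) 6 of the 9 genes were called lower and 2 higher, beside 32% of all genes called lower and 31.2% called higher (63.2% either way). The 5 apical carriers had a median log2 fold change of −1.56, against a median of 0.00 for all genes and of −2.55 for the 10 proximal tubule markers. Slc20a1 (0.88, adjusted p = 1.17e-05) and Slc2a1 (0.54, adjusted p = 0.00466) rose. Slc20a2 had −0.31 (SE 0.14, adjusted p = 0.0631). It was called lower without Acot12+/+ CL replicate 2 (adjusted p = 0.0461), without Acot12+/+ UUO replicate 3 (0.0228) and without Acot12-/- CL replicate 2 (0.0261).

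The order of the carriers in a kidney changed with these values. In Acot12+/+ CL kidneys the mean levels ran from Slc34a1 (802 ± 215 FPKM, SD, n = 3) through Slc5a10 (56.2 ± 8.79), Slc2a2 (48.5 ± 9.67), Slc5a2 (41.6 ± 26.1) and Slc5a1 (30.3 ± 6.68) to Slc2a1 (19.6 ± 3.01), Slc20a2 (13.5 ± 1.43), Slc20a1 (10.8 ± 1.31) and Slc34a3 (9.46 ± 4.74). In that order the ranges of Slc34a1 and Slc5a10 did not overlap, nor did those of Slc5a1 and Slc2a1, of Slc2a1 and Slc20a2 or of Slc20a2 and Slc20a1, while the other neighbours overlapped. In Acot12+/+ UUO kidneys Slc34a1 (219 ± 92.0 FPKM) was still first, followed by Slc5a10 (27.1 ± 10.7), Slc2a1 (27.0 ± 5.95), Slc20a1 (20.9 ± 2.86), Slc5a2 (20.8 ± 1.36), Slc5a1 (16.3 ± 2.10), Slc2a2 (14.1 ± 0.432), Slc20a2 (12.7 ± 2.33) and Slc34a3 (1.28 ± 0.611). There the ranges did not overlap between Slc34a1 and Slc5a10, Slc5a2 and Slc5a1, Slc5a1 and Slc2a2, or Slc20a2 and Slc34a3, and the other neighbours overlapped. In Acot12-/- CL kidneys the order was Slc34a1 (1470 ± 667 FPKM), Slc5a2 (129 ± 63.6), Slc2a2 (101 ± 37.0), Slc5a10 (81.5 ± 30.2), Slc5a1 (39.1 ± 2.78), Slc34a3 (26.2 ± 10.9), Slc20a2 (17.1 ± 3.75), Slc2a1 (16.7 ± 3.84) and Slc20a1 (8.92 ± 1.65). Slc5a2 stood above Slc2a2 and Slc5a10 in that order, with overlapping ranges, and below both in Acot12+/+ CL kidneys.

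**Figure D3:**
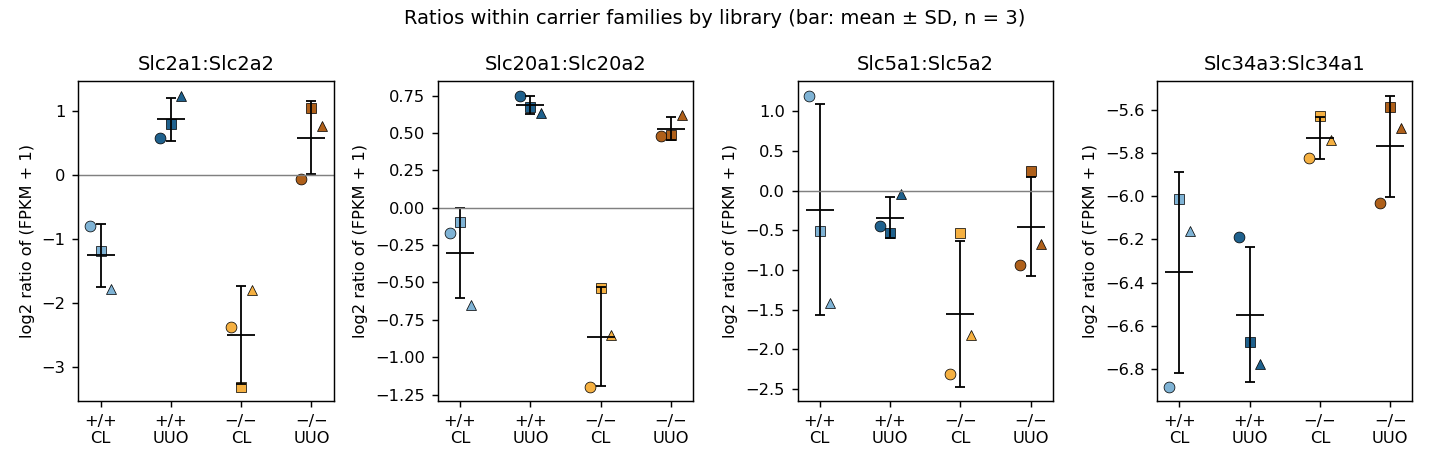
Log2 ratio of (FPKM + 1) of the carriers in 4 family pairs, in each library by group; circles, squares and triangles are kidneys numbered 1, 2 and 3, and bars are mean ± SD (n = 3). Slc2a1:Slc2a2 lies from −3.31 to −0.80 in CL and from −0.06 to 1.24 in UUO kidneys, and Slc20a1:Slc20a2 from −1.20 to −0.09 in CL and from 0.48 to 0.75 in UUO kidneys; the other pairs overlap between the sides.

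Ratios within a family compare carriers in the same library and do not depend on the scaling between libraries, apart from the pseudocount. The log2 ratio of Slc2a1 (GLUT1) to Slc2a2 (GLUT2) was −1.26 ± 0.494 (SD, n = 3) on the CL side and 0.87 ± 0.336 on the UUO side of Acot12+/+ mice, and −2.50 ± 0.764 and 0.58 ± 0.572 in Acot12-/- mice. It rose by 2.60 from CL to UUO in an exact permutation test, two-sided, with the sides permuted within genotypes (p = 0.005, adjusted p = 0.01 over 4 pairs, 400 arrangements). The ratio of Slc20a1 to Slc20a2 was −0.30 ± 0.303 and 0.68 ± 0.0604 in Acot12+/+ mice, and −0.86 ± 0.331 and 0.53 ± 0.0771 in Acot12-/- mice. It rose by 1.19 (exact permutation p = 0.005, adjusted p = 0.01), and 0.005 is the smallest p these arrangements allow. In every CL kidney Slc2a2 exceeded Slc2a1 and Slc20a2 exceeded Slc20a1. In all 6 UUO kidneys Slc20a1 was the higher of its pair, and Slc2a1 was in 5 of 6.

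The log2 ratio of Slc5a1 (SGLT1) to Slc5a2 (SGLT2) was −0.24 ± 1.33 (SD, n = 3) on the CL side and −0.34 ± 0.262 on the UUO side of Acot12+/+ mice, and −1.55 ± 0.919 and −0.45 ± 0.620 in Acot12-/- mice. Over both genotypes it differed by 0.50 between the sides (exact permutation p = 0.38, adjusted p = 0.507), and this value joins differences of opposite sign in the genotypes. It was 0.92 without Acot12+/+ CL replicate 1, 0.22 without Acot12-/- CL replicate 1 and 0.32 without Acot12-/- CL replicate 3. These means over the libraries left do not weigh the genotypes equally, so the difference between genotypes is part of them. The ratio ran from −2.31 to 1.20 in CL kidneys. The ratio of Slc34a3 to Slc34a1 differed by −0.12 (exact permutation p = 0.525). With a pseudocount of 0.1 in place of 1 the latter difference was −0.65 (exact permutation adjusted p = 0.0267), so that this comparison depends on how low values of Slc34a3 are treated. When the kidneys were paired by number and the signs of the 6 paired differences flipped, the rises of Slc2a1:Slc2a2 and Slc20a1:Slc20a2 each had an exact p of 0.03125 and an adjusted p of 0.0625. All 6 pairs moved the same way for both ratios, and 0.03125 is the smallest p that the 64 sign arrangements allow.

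Acot12-/- and Acot12+/+ kidneys were compared next on each side. In CL kidneys 1 of the 9 genes was called, higher in Acot12-/-, beside 1.09% of all genes called higher and 3.26% called lower (4.35% either way). This was Slc2a2 (log2 difference 1.01, SE 0.26, limma adjusted p = 0.0465), for which all 3 Acot12-/- CL libraries lay above the Acot12+/+ CL libraries. The call was lost with the replicate block (adjusted p = 0.0588), with no filter on low values (0.0709), with median-ratio size factors (0.0521), with equal totals (0.0822) and when the fit held only CL libraries (0.179). Leaving out each Acot12+/+ CL library in turn gave an adjusted p of 0.182, 0.128 and 0.0675 in order of replicates, and it was 0.0897 without Acot12-/- CL replicate 1. Leaving out Acot12+/+ UUO replicates 1, 2 and 3, which enter through the shared spread, gave 0.0744, 0.0733 and 0.0673, and leaving out Acot12-/- UUO replicate 3 gave 0.0683.

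The apical carriers had positive differences between the genotypes in CL kidneys that were not called. They were 1.69 for Slc5a2 (SE 0.54, limma adjusted p = 0.115), 1.41 for Slc34a3 (SE 0.55, 0.196), 0.79 for Slc34a1 (SE 0.58, 0.562), 0.46 for Slc5a10 (SE 0.35, 0.574) and 0.38 for Slc5a1 (SE 0.18, 0.305). Slc34a3 was the apical carrier whose genotypes did not overlap, with 4.26 to 13.6 FPKM against 14.4 to 35.9; this was so, in that direction, for 8.58% of all genes (9.71% in the other direction). Slc20a2 (0.31), Slc2a1 (−0.23) and Slc20a1 (−0.25) were not called either.

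Acot12-/- CL replicate 2 stood apart. For Slc5a2, Slc5a10, Slc34a1, Slc34a3, Slc20a2 and Slc2a1 it was the lowest of its group, while its Slc2a2 (143.8 FPKM) was the highest of all 12 libraries. Without it 3 of the 9 genes were called higher in Acot12-/- CL kidneys, namely Slc2a2 (0.73, adjusted p = 0.0339), Slc5a2 (2.17, adjusted p = 0.0198) and Slc20a2 (0.49, adjusted p = 0.0348). Of the 13271 genes tested 2917 were then called, 1540 higher and 1377 lower, in place of 577 (144 higher and 433 lower). Acot12-/- UUO replicate 2 carries the same number, and it had the lowest Slc34a1, Slc34a3, Slc5a2, Slc5a10 and Slc5a1 of the 12 libraries. Its Slc2a2 was the lowest too, at 13.54 FPKM beside 13.63 in Acot12+/+ UUO replicate 3. Without both of these kidneys, a choice made after the values were seen, 6 of the 9 genes were called higher in Acot12-/- CL: those 3 and Slc5a10 (0.81, adjusted p = 0.0417), Slc34a1 (1.20, 0.0279) and Slc34a3 (1.78, 0.0115). In that fit 3194 of the 13271 genes were called, 1783 higher and 1411 lower. The proximal tubule marker sum of Acot12-/- CL replicate 2 was 6536 FPKM, against 8244 and 7038 in the other two and 4715 to 5887 in Acot12+/+ CL kidneys. Its injured tubule marker sum was 5005 FPKM, the highest of the CL kidneys, against 4100 in Acot12-/- CL replicate 3. This sum rests mainly on Spp1, whose mean in Acot12-/- CL kidneys was 3429 FPKM, against 154 for Clu, the next marker. Other markers also differed between the genotypes in CL kidneys: 4 of 7 macrophage, 3 of 3 tested lymphocyte, 4 of 6 endothelial and 2 of 7 fibroblast markers were called lower in Acot12-/- (macrophage sums of 157 to 181.3 against 54.8 to 120.2 FPKM), beside 3.26% of all genes. Their part in the differences of the carriers was not tested.

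In UUO kidneys no gene was called between the genotypes by limma (0% of 13271; 314 at an unadjusted p under 0.05). The log2 differences of the 9 carriers ran from −0.27 for Slc20a1 to 0.96 for Slc34a3 (SE 0.55). Slc20a1 was the carrier without overlap, with 18.3 to 23.9 FPKM in Acot12+/+ against 16.9 to 17.2 in Acot12-/- UUO kidneys, as were 6.47% of all genes in that direction (5.49% in the other). The change from CL to UUO was not called different between the genotypes for any of the 9, beside 0.105% of all genes (14). The estimates ran from −1.63 for Slc5a2 (SE 0.77) through −0.75 for Slc2a2 (SE 0.36, limma adjusted p = 0.51) to 0.20 for Slc2a1 (SE 0.29), with SEs from 0.22 to 0.82 over the 9 genes.

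Kidneys with the same number showed the changes pair by pair. Slc34a1 differed by −2.02, −2.04 and −1.68 on the log2 scale between UUO and CL kidneys 1, 2 and 3 of Acot12+/+ mice and by −2.20, −3.24 and −2.14 in Acot12-/- mice. Slc5a2 differed by 0.41, −0.88 and −1.77 in Acot12+/+ and by −2.40, −2.35 and −2.37 in Acot12-/- mice. The Acot12-/- pairs of Slc5a2 lay within 0.1 of each other although the levels of pair 2 were the lowest. Slc2a2 differed by −1.42, −1.63 and −2.03 in Acot12+/+ and by −1.81, −3.32 and −2.19 in Acot12-/- mice.

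Other carriers of sugars and phosphate were counted from lists written for this purpose. Of 15 other sugar carriers 11 were tested, and 7 were called lower and 2 higher after UUO in Acot12+/+ (median −0.99) and 6 lower and 2 higher in Acot12-/- kidneys (median −0.66), against medians of 0.01 and −0.01 for all genes. Of all genes 23.8% were called lower and 23.5% higher in Acot12+/+, and 27% and 26.4% in Acot12-/- kidneys. Slc2a5, a fructose carrier of the brush border, fell from a mean of 15.8 to 2.64 FPKM in Acot12+/+ (log2 fold change −2.23, adjusted p = 0.000374) and from 34.3 to 5.77 in Acot12-/- kidneys (−2.45). Slc2a4, the insulin-responsive glucose carrier, fell from 9.002 to 1.42 FPKM in Acot12+/+ kidneys (−2.09). Slc5a9, a mannose carrier, and Slc2a12 fell as well (−0.99 and −1.09 in Acot12+/+, −1.68 and −1.77 in Acot12-/-), and both were called higher in Acot12-/- than Acot12+/+ CL kidneys (0.73 and 0.78, adjusted p = 0.0322 and 0.0264). Slc2a6, a lysosomal member of its family, and Slc50a1 rose in both genotypes (1.00 and 0.37 in Acot12+/+, 1.39 and 0.91 in Acot12-/-). Slc5a4a was listed at 0 in all 12 libraries.

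Of 7 other phosphate carriers 6 were tested, with 4 called lower and 2 higher in Acot12+/+ and 4 lower and 1 higher in Acot12-/- kidneys. The shares of all genes were 23.8% lower and 23.5% higher in Acot12+/+, and 27% and 26.4% in Acot12-/- kidneys. Slc17a1 and Slc17a3, anion carriers of the proximal tubule first described as phosphate carriers, fell by 2.24 and 2.73 on the log2 scale in Acot12+/+ kidneys. Slc25a3, the mitochondrial phosphate carrier, and Xpr1, the phosphate exporter, fell by 0.90 and 0.63. Slc17a4 was called higher in Acot12+/+ kidneys (0.54) and had 0.37 in Acot12-/-. Slc34a2 encodes NaPi-IIb, the intestinal and lung member of the Slc34 family. It rose from a mean of 1.12 to 12.8 FPKM in Acot12+/+ (log2 fold change 2.65, SE 0.24, adjusted p = 1.35e-05) and from 0.935 to 10.6 in Acot12-/- kidneys (2.56, SE 0.24, adjusted p = 7.64e-06), opposite to Slc34a1 and Slc34a3. The mean of Slc34a2 in UUO kidneys remained far under that of Slc34a1 and above that of Slc34a3 (1.28 and 4.18 FPKM).

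**Figure D4:**
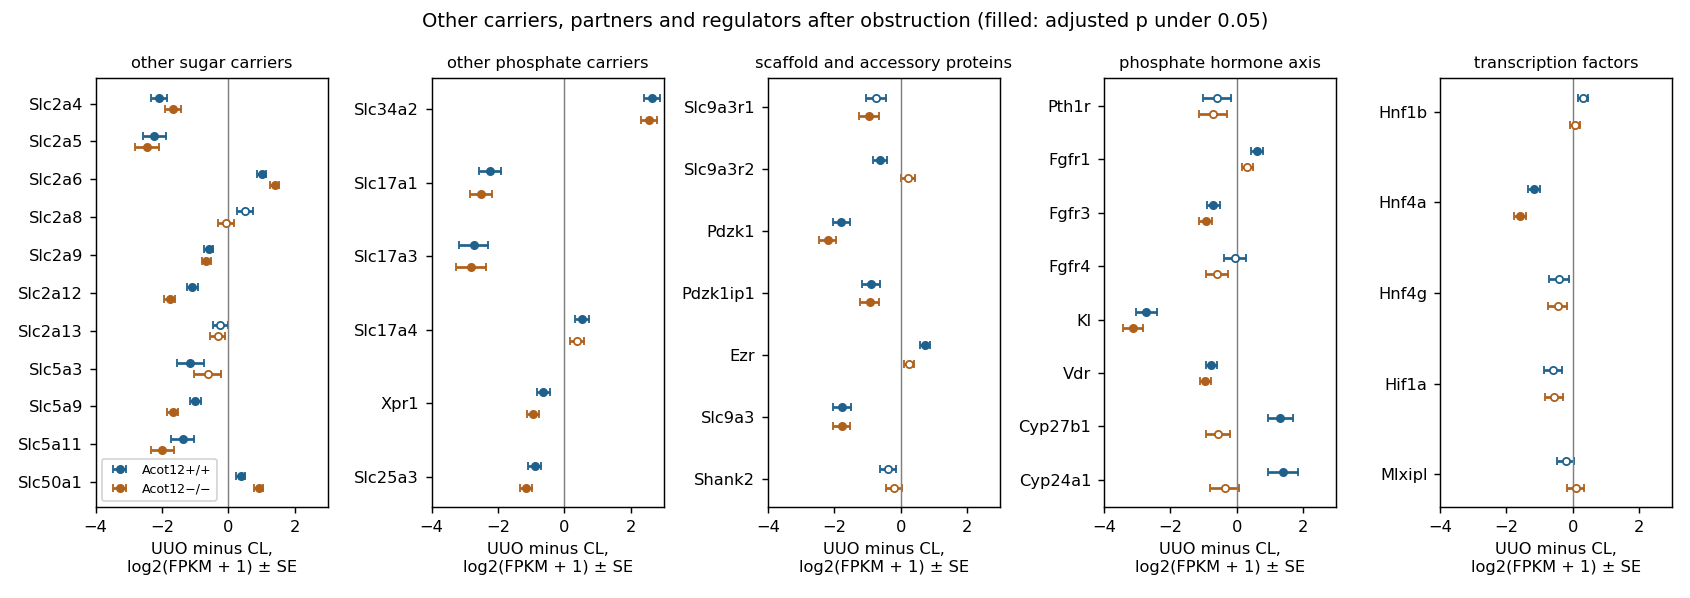
Change from CL to UUO on log2(FPKM + 1), estimate ± SE from limma, of other sugar carriers, other phosphate carriers, scaffold and accessory proteins, genes of the phosphate hormone axis and transcription factors, in Acot12+/+ (blue) and Acot12-/- (brown) kidneys; filled points have an adjusted p under 0.05. Slc34a2 lies at 2.65 and 2.56 and Kl at −2.72 and −3.13, while Cyp27b1 and Cyp24a1 lie at 1.31 and 1.39 in Acot12+/+ and at −0.57 and −0.36 in Acot12-/- kidneys.

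Genes of scaffold and accessory proteins of the brush border were next, in a list that also holds another carrier, a sodium-hydrogen exchanger. Of 7 scaffold and accessory genes 4 were called lower in each genotype, and 1 was called higher in Acot12+/+ kidneys. The shares of all genes were 23.8% lower and 23.5% higher in Acot12+/+, and 27% and 26.4% in Acot12-/- kidneys. Pdzk1, a PDZ scaffold that binds NaPi-IIa, fell from a mean of 590 to 170 FPKM in Acot12+/+ (log2 fold change −1.78, adjusted p = 0.000219) and from 891 to 199 in Acot12-/- kidneys (−2.20, adjusted p = 3.34e-05). Slc9a3r1, which encodes NHERF1, another scaffold of NaPi-IIa, fell in Acot12-/- kidneys (−0.95, adjusted p = 0.0206) and had −0.75 (adjusted p = 0.064) in Acot12+/+. Pdzk1ip1 encodes MAP17, the accessory subunit of SGLT2, and it fell in both (−0.88 and −0.93). Ezr, the ezrin gene, rose in Acot12+/+ kidneys (0.73, adjusted p = 0.003) and had 0.26 (adjusted p = 0.20) in Acot12-/-.

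Of 8 genes of the hormone axis of phosphate, 3 were called lower in each genotype (Kl, Vdr and Fgfr3), and 3 were called higher in Acot12+/+ kidneys (Fgfr1, Cyp27b1 and Cyp24a1). The shares of all genes were 23.8% lower and 23.5% higher in Acot12+/+, and 27% and 26.4% in Acot12-/- kidneys. Kl, which encodes klotho, the co-receptor for FGF23, fell from a mean of 156 to 23.3 FPKM in Acot12+/+ (log2 fold change −2.72, adjusted p = 4.95e-05) and from 210 to 24.8 in Acot12-/- kidneys (−3.13, adjusted p = 1.14e-05). Pth1r, the receptor of parathyroid hormone, had −0.60 and −0.72 and was not called. Cyp27b1, which activates vitamin D, and Cyp24a1, which degrades it, were higher in Acot12-/- than Acot12+/+ CL kidneys (2.41, SE 0.37, adjusted p = 0.00737, and 2.05, SE 0.45, adjusted p = 0.0264). The mean of Cyp27b1 went from 2.28 to 6.76 FPKM with UUO in Acot12+/+ mice and from 17.4 to 10.5 FPKM in Acot12-/- mice, and that of Cyp24a1 from 6.44 to 15.98 FPKM and from 26.3 to 20.9 FPKM. The difference between the genotypes in their change after UUO was not called (limma adjusted p = 0.169 and 0.311). Of 5 transcription factors Hnf4a was called lower in both genotypes (−1.17, adjusted p = 0.000256, and −1.60, adjusted p = 2.03e-05), while Hif1a had −0.59 and −0.56.

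Genes with levels most like each carrier over the 12 libraries were taken by Pearson's r of log2(FPKM + 1), as a description only, since all libraries share the split into UUO and CL. For Slc34a1 they were Ass1 and Slc13a3 (r = 0.992 for each), for Slc34a3 Smim24 (0.982) and Cyp2d26 (0.980), for Slc5a10 Abhd14b and Hagh (0.988 for each) and for Slc5a1 Fam107a (0.984). Slc5a2 had Asl (0.961) and Abcd4 (0.958), with 3 genes over 0.95, against 185 for Slc34a1 and 328 for Slc2a2. Slc2a2 was most like Slc2a12 (0.990) and Acpp (0.987). Slc20a1 was most like Acta2 (0.980) and Col1a1 (0.978), which are fibroblast markers, and had 75 genes over 0.95. Slc2a1 (Lgals3 and Cdc42ep4, 0.925 for each) and Slc20a2 (Cnnm2, 0.922) had no gene over 0.95.

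The genes lie on 8 chromosomes in GRCm38 (GENCODE vM21): Slc34a1 at chr13:55398187-55415592, Slc34a3 at chr2:25228898-25234364, Slc5a1 at chr5:33104219-33162870, Slc5a2 at chr7:128265657-128272430, Slc5a10 at chr11:61672781-61720826, Slc2a2 at chr3:28697903-28731359, Slc2a1 at chr4:119108711-119137983, Slc20a1 at chr2:129198764-129211616 and Slc20a2 at chr8:22476788-22569612. Slc5a10 and Slc34a3 are on the minus strand and the others on the plus strand.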

How the data were processed

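RNA of kidney cortex was sequenced for 12 libraries in 4 groups of 3 (NEBNext Ultra II Directional libraries, NovaSeq). Trimming, mapping and normalization were done by a company for the authors, with mm10 and edgeR named, without versions, in the submitters' processing notes; the aligner is not given in the sources used here. The deposited values are FPKM per gene symbol. The authors' files do not name the unit, which was derived from the values: 54.2% to 63.1% of the low values of long genes were whole multiples, within 0.02, of a step that falls with transcript length, and the step gave the depth. FPKM are not counts, so no count model was run. Groups came from the sample titles.

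The 9 genes and all lists were chosen with earlier results of these data known. Genes with at least 1 FPKM in at least 3 libraries were tested (13271 of 23183). R 4.3.3 and limma 3.58.1 (lmFit, and eBayes with a variance trend) were fitted to log2(FPKM + 1) with a mean per group, or with genotype and side as additive terms for both genotypes together; p was adjusted by Benjamini-Hochberg over all genes tested, and a gene was called under 0.05. Ratios were tested by exact permutation (Python 3.11.15). The fit and the depth estimate were tested on simulated data. Named genes are the 9 carriers, genes of the lists, Acot12 and the 2 most similar genes per carrier; some of these genes, and a promoter motif, are not reported here. Residuals of CL and UUO kidneys with the same number correlated over genes at 0.152, 0.244 and 0.307 in Acot12+/+ and 0.319, 0.175 and 0.251 in Acot12-/- kidneys. Kidneys of a genotype with different numbers had −0.263 to 0.103, so the numbers were taken to pair kidneys within genotypes. The main fits and the permutation of sides leave this pairing out, and the replicate block and the sign flips use it. The labels do not say that replicates are separate animals, so p-values measure the spread between these samples. Alternatives were a pseudocount of 0.1, no filter, median-ratio size factors, equal totals, no trend, a replicate block, fits of only the groups compared, leaving out each library and, chosen after seeing the data, leaving out 28 genes listed at 0 beside at least 10 FPKM and leaving out both Acot12-/- kidneys with the number 2. Positions come from GENCODE vM21 (GRCm38) and promoters from RefSeq (GRCm38.p6).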

Additional observations from a re-analysis of the deposited data

How the results depend on the processing

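Of 1116 recomputed fold changes of the 9 carriers, 1044 kept their direction and their side of the threshold, 35 were no longer called, 12 became called and 25 changed sign, of which 1 (Slc20a2 after UUO in Acot12+/+ kidneys with equal totals) also became called. In the comparison of genotypes in CL kidneys, 1 carrier and 577 genes were called. No carrier (0) was called there without the filter on low values, with median-ratio size factors, with equal totals, with the replicate block or when other groups were kept out of the fit, and 0 to 3 were called when single libraries were left out; 6 were called without both Acot12-/- kidneys with the number 2. Genes called there were 296 with equal totals, 1 when other groups were kept out of the fit, 183 to 2917 without single libraries (2917 without Acot12-/- CL replicate 2) and 3194 without both kidneys. In UUO kidneys 0 genes were called between genotypes, 3 with equal totals, 2 without genes listed at 0 beside 10 FPKM or more, 1 without both kidneys and 0 to 2 without single libraries. The interaction had 14 genes, but 0 without the filter and with equal totals, 8 without the trend, 62 with the replicate block, 388 without both kidneys and 0 to 888 without single libraries. Slc20a2 after UUO turned to 0.59 in Acot12+/+ kidneys and 0.29 over both genotypes with equal totals, and ran from −0.22 to 0.0237 in Acot12+/+ kidneys without single libraries. Between genotypes in UUO kidneys Slc5a2 (−0.11) and Slc5a10 (−0.14) turned with equal totals and Slc5a1 (0.0674) without both kidneys. Without single libraries, that comparison ran from −0.17 to 0.33 for Slc5a10, −0.30 to 0.95 for Slc34a1, −0.17 to 0.13 for Slc2a1, −0.13 to 0.0674 for Slc5a1, −0.24 to 0.007 for Slc20a2 and −0.25 to 0.53 for Slc5a2, and the interaction from −0.13 to 0.10 for Slc20a1, −1.09 to 0.16 for Slc34a1 and −0.82 to 0.23 for Slc34a3. The replicate block left the ratio changes at 2.60 for Slc2a1:Slc2a2 and 1.19 for Slc20a1:Slc20a2, with an exact adjusted p of 0.0625 for each, from the smallest p the sign arrangements allow. The change of Slc34a3:Slc34a1 was −0.65 with a pseudocount of 0.1. Without single libraries it ran from −0.28 to 0.0079, from means over libraries that no longer gave the genotypes equal weight. The difference between genotypes is part of this range, so its change of sign need not be one within a genotype. Apart from Slc2a2 between genotypes in CL kidneys, the replicate block changed no call of a carrier's fold change. Causes of these shifts were not tested. With 3 libraries a group and SEs of 0.54 to 0.58, differences of Slc34a1, Slc34a3 and Slc5a2 between genotypes are the least resolved.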
